A study of Mus musculus with 8 samples.

Results

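The genes Zfp367, Ctsl, Cdk20, Zfp738 and Fastkd3 lie on mouse chromosome 13, and are 5 of 16593 genes with a probe on the arrays, measured by 9 of 25697 probes. They were selected on these same arrays, each having a probe past the threshold between Bgn knockout and wild type livers. All their probes are described here, of which 7 were bright enough to be tested and 2 were dim. In Bgn knockout livers the probes for Zfp738 and Fastkd3, and 1 of 2 for Zfp367, were at background level while all wild type livers gave a signal. Ctsl was 1.92-fold higher in Bgn knockout livers after background correction, and less so without it. The 4 probes of Cdk20 disagreed with each other.

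Total RNA was taken from whole liver of male mice aged 13 weeks on a C57BL/6 background. There were 4 Bgn knockout mice, which lack the gene for the matrix proteoglycan biglycan, and 4 wild type mice, with 1 single-colour Illumina bead array per mouse. The part of Bgn removed, and whether littermates served as controls, are not given in the sources used here. Each probe has an intensity and a p-value for its detection on every array, and is called detected where that p was under 0.05.

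The 5 genes have separate roles. Zfp367 and Zfp738 encode zinc finger proteins of the type that binds DNA, and Zfp738 lies in a large cluster of zinc finger genes, some of which are known in mice to repress genes with sex-biased expression in liver. Ctsl encodes cathepsin L, a cysteine protease that degrades proteins in lysosomes. Cdk20 encodes a kinase related to the cyclin-dependent kinases, with known ties to cell division and to cilia. Fastkd3 encodes a mitochondrial protein of the FASTK family, whose members bind and process mitochondrial RNA.

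In the gene order of RefSeq (assembly GRCm38.p6), the 5 genes took places 178 (Zfp367), 182 (Ctsl), 183 (Cdk20), 191 (Zfp738) and 192 (Fastkd3) among the 286 tested genes of chromosome 13. No other protein-coding gene lies between Ctsl and Cdk20, and they are shown first because their probes differed in opposite directions. Their promoter windows, from 250 bases before to 50 after the annotated start, are printed with Fastkd3, which shares its start region with Mtrr, from RefSeq (GRCm38.p6), 5′ to 3′ on the strand of the gene. Capitals mark matches to the motifs CACGTG (an E-box), TTATGNAA (a D-box) and GCGCA followed, after any 1 base, by GCGC (an NRF1 motif), searched on both strands.
Ctsl promoter (chr13:64370471-64370770, minus strand): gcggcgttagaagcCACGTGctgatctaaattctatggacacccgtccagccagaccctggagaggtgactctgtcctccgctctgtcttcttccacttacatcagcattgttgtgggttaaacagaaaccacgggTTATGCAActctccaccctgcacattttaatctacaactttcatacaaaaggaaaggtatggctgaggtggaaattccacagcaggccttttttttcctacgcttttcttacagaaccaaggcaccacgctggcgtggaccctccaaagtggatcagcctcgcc
Cdk20 promoter (chr13:64432303-64432602, plus strand): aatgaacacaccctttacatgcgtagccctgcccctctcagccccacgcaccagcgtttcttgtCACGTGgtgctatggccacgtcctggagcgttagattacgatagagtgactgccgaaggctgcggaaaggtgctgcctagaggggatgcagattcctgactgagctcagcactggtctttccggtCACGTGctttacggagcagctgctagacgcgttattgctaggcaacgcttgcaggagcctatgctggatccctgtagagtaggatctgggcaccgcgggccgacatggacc
Fastkd3 promoter (chr13:68581960-68582259, plus strand): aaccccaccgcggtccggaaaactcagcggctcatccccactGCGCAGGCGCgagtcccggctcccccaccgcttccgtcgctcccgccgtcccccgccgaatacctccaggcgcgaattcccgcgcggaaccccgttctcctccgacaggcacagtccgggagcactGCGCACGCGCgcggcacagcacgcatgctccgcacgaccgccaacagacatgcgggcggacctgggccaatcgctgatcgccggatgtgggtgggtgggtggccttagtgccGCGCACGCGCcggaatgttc
The Ctsl window holds 1 E-box and 1 D-box, the Cdk20 window 2 E-boxes, and the Fastkd3 window 3 matches to the NRF1 motif, none of which overlaps a match to another motif. The windows of Zfp738 and Zfp367 have no match to these 3, and both Zfp367 windows, for its 2 annotated starts, hold 1 match to TTTNGCGC (an E2F motif). Over all 32851 windows of the same length, 7.15% hold the E-box, 3.38% the D-box, 4.6% the NRF1 motif and 1.38% the E2F motif. The motifs were chosen after the sequences were seen, and a match is a description of letters only. The Fastkd3 window shares 205 bases with a window of Mtrr, a methionine synthase reductase gene on the opposite strand.

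Depth and label checks bear on all values that follow. The median deposited intensity lay between 141 and 164 per array, and 11352 to 11910 probes were detected. The Bgn probe averaged 190 ± 15.3 intensity units in Bgn knockout livers and 3660 ± 918 in wild type livers (SD, n = 4 each). Of the 7 hepatocyte markers 6 are on the array and 5 were detected on all 8 arrays (Alb, Apoa1, Ttr, Cps1 and Pck1). Skeletal muscle markers stood out on 3 arrays (Bgn knockout replicates 1 and 2 and wild type replicate 4), with summed intensities of the 6 markers between 800 and 37037 units in Bgn knockout livers and between 782 and 26597 in wild type livers. Cholangiocyte markers (4 of 5 on the array, Krt19 not detected) summed to 665 to 779 units in Bgn knockout livers and 930 to 1093 in wild type livers, and without Anxa4 to 456 to 518 in Bgn knockout livers and 452 to 501 in wild type livers. The part of these cell types in the values of the 5 genes was not tested, and in whole liver fewer cells of a type and less RNA per cell cannot be told apart.

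Zfp738 had the largest log2 change of the 9 probes. Its deposited intensity was 157, 151, 139 and 126 in the 4 Bgn knockout livers and 261, 204, 332 and 329 in the 4 wild type livers. The probe was detected on 0 of 4 Bgn knockout arrays and on 4 of 4 wild type arrays, and the groups did not overlap. After background correction and quantile normalization its log2 intensity averaged 4.62 ± 0.13 in Bgn knockout livers and 7.32 ± 0.49 in wild type livers (SD, n = 4 each), a log2 change of -2.70 (SE 0.24). Because the Bgn knockout signal was not above background, the fold is a bound, at least 4.46-fold lower on the neqc scale. For this bound, each Bgn knockout array enters with its lowest signal among detected probes, or with the probe's value where that was higher. The bounds given here hold for this background correction only, and the changes were smaller under the others. Zfp738 belongs to a family of close relatives, and the probe sequences that would show whether it also binds one of them were not used here.

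Fastkd3 had the same pattern. Its intensity was 150, 159, 153 and 136 in Bgn knockout livers, none of them detected, and 227, 188, 250 and 270 in wild type livers, all detected. The log2 intensity averaged 4.80 ± 0.16 in Bgn knockout livers and 6.85 ± 0.35 in wild type livers (SD, n = 4 each), a log2 change of -2.05 (SE 0.21) and a bound of at least 3.20-fold lower. Wild type replicate 2 had the lowest wild type value, 6.33 on the log2 scale against 6.99 to 7.06 on the others. Mtrr, whose annotated start overlaps that of Fastkd3 by 3 bases, has 4 probes, of which 1 was detected on 1 Bgn knockout array and the others on none, so the gene that shares the printed start region gave no level to compare.

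Zfp367 is measured by 2 probes that did not move alike. On ILMN_1257178 the intensity was 152, 156, 152 and 134 in Bgn knockout livers and 213, 174, 247 and 255 in wild type livers, with detection on 0 of 4 Bgn knockout arrays and 4 of 4 wild type arrays. This probe averaged 4.76 ± 0.14 in Bgn knockout livers and 6.66 ± 0.46 in wild type livers on the log2 scale (SD, n = 4 each), a change of -1.90 (SE 0.23) and a bound of at least 2.82-fold lower. On ILMN_2897424 the intensity was 179, 165, 168 and 151 in Bgn knockout livers, detected on 3 of 4 arrays, and 144, 144, 147 and 157 in wild type livers, detected on none. Detection of the 2 probes thus ran in opposite directions between the genotypes. On the second probe this rests on values near the cutoff, with a detection p of 0.0188 to 0.0865 in Bgn knockout livers and 0.0764 to 0.168 in wild type livers. The second probe was too dim to be tested, with a log2 change of 0.36 (SE 0.18) and overlapping groups. Within each array, the first probe minus the second changed by -2.26 (SE 0.25) on the log2 scale. Its size depends on the background handling, with -1.34 at an offset of 50, -0.74 without background correction and -0.81 in the authors' normalized values. Both probes carry the same transcript accession in the platform annotation, so it does not tell them apart.

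**Figure D1:**
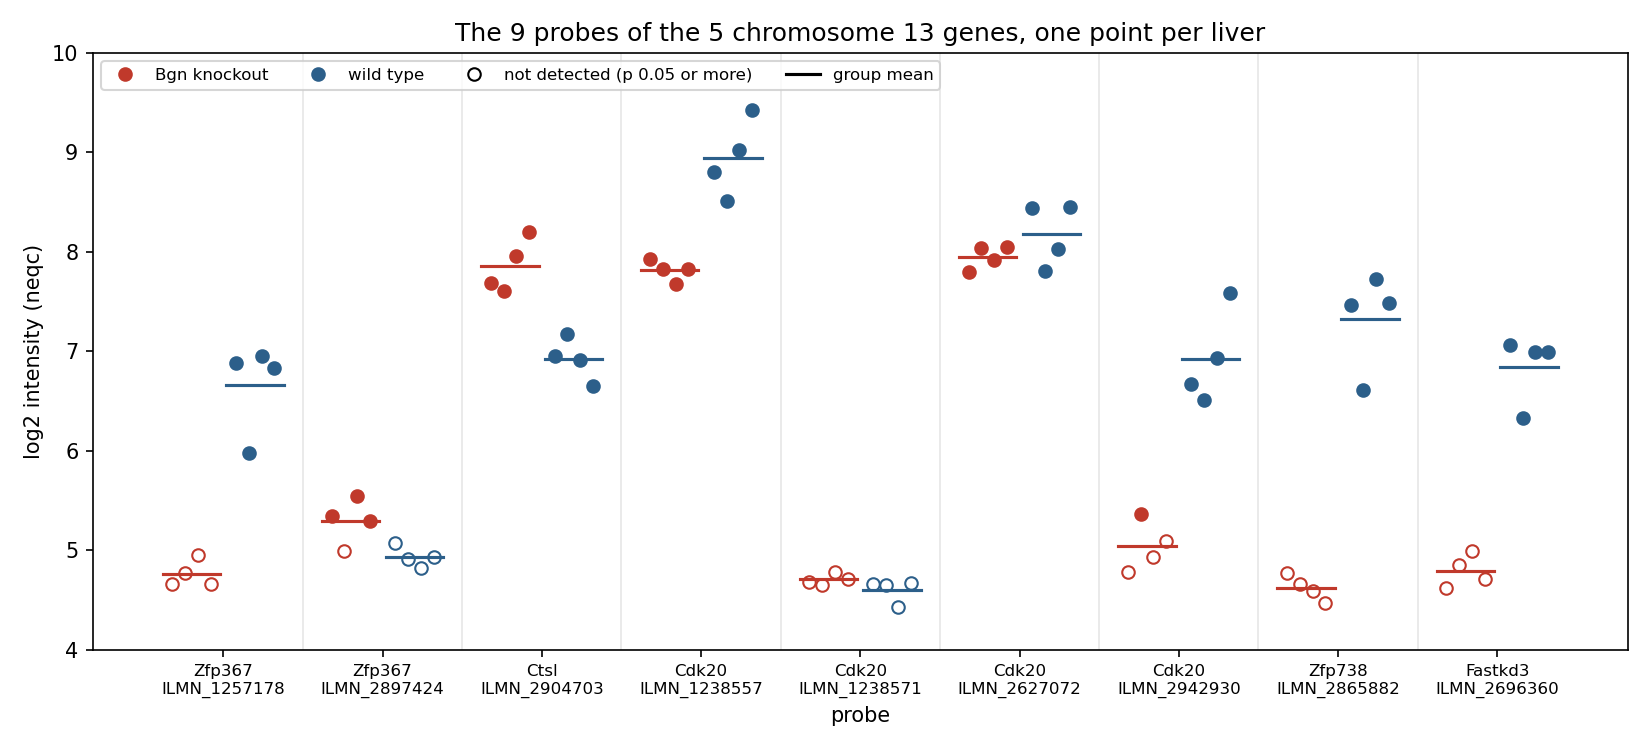
Log2 intensity (vertical axis) of the 9 probes of the 5 genes (horizontal axis), 1 point per liver with Bgn knockout left and wild type right of each pair, open points not detected and lines at the group means. The groups are apart on 6 probes, and 3 of them (Zfp367 ILMN_1257178, Zfp738 and Fastkd3) were not detected in any Bgn knockout liver.

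Cdk20, the gene with most probes, gave the most varied picture. ILMN_2942930 had intensities of 158, 179, 151 and 146 in Bgn knockout livers, of which 1 was detected (replicate 2), and 200, 198, 245 and 342 in wild type livers, all detected. Its log2 change was -1.88 (SE 0.25), with means of 5.05 ± 0.25 in Bgn knockout livers and 6.93 ± 0.47 in wild type livers (SD, n = 4 each). ILMN_1238557, detected on all arrays, had 432, 405, 320 and 298 units in Bgn knockout livers and 486, 438, 636 and 884 in wild type livers, a log2 change of -1.12 (SE 0.18). On the deposited scale these groups nearly met, since Bgn knockout replicate 1 had 432 and wild type replicate 2 had 438 units, while on the normalized log2 scale they were 0.58 apart.

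The third Cdk20 probe detected on all arrays, ILMN_2627072, did not pass. It had 404, 448, 359 and 326 units in Bgn knockout livers and 401, 313, 383 and 517 in wild type livers, with overlapping groups and a log2 change of -0.23 (SE 0.17). The fourth, ILMN_1238571, was not detected on any of the 8 arrays, where it had 136 to 153 units in Bgn knockout livers and 130 to 146 in wild type livers, so neither group was above background on it. All 4 probes are annotated with the same transcript accession. Within each array, the log2 change of ILMN_1238557 minus that of ILMN_2627072 was -0.89 (SE 0.17), and that of ILMN_2942930 minus that of ILMN_2627072 was -1.65 (SE 0.21). The second of these was -0.52 without background correction and -0.57 in the authors' normalized values, while the first was -0.66 in both. Between ILMN_2942930 and ILMN_1238557 the order depended on the background correction: the change of the first minus that of the second was -0.76 (SE 0.15) with it, by 0.14 without it and by 0.086 in the authors' normalized values. The RefSeq table places 1700015C15Rik, for which the array has no probe, over Cdk20.

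Ctsl was the member with higher signal in the knockout. Its single probe had 384, 367, 365 and 350 intensity units in Bgn knockout livers and 218, 243, 243 and 241 in wild type livers, all detected. Every Bgn knockout liver lay above every wild type liver. The log2 intensity averaged 7.86 ± 0.27 in Bgn knockout livers and 6.92 ± 0.21 in wild type livers (SD, n = 4 each), a change of 0.94 (SE 0.18) or 1.92-fold. The change was 0.54 without background correction and 0.56 in the authors' normalized values, so it stays below 2-fold on each of these scales.

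The genes were chosen by these values, which are therefore a description. In limma's fit across all 11494 tested probes, 6 of the 7 tested probes of the 5 genes were past a Benjamini-Hochberg adjusted p of 0.05, 5 of them lower and 1 higher in the knockout, where the background share over all tested probes is 1.1% (0.722% lower and 0.383% higher). The groups did not overlap on these 6 probes, against 8.07% of all tested probes. That is no separate result, because the genes were chosen by this contrast. In addition, 3 of the 6 probes were tested only through their detection on the 4 wild type arrays. Of the 6 probes, that of Ctsl had the largest limma adjusted p (0.0281). Just outside the threshold on chromosome 13 stood Cdc14b (0.0509), which lies between Zfp367 and Ctsl. The count of 6 rests on the number of arrays. Without wild type replicate 1, 3 or 4 only 4 probes were still tested and 2 passed, and without wild type replicate 2 there were 4 tested and 3 passed, since a probe detected only in wild type livers needs all 4 of them to be tested. The 2 arrays with the highest muscle signal were wild type replicate 4 and Bgn knockout replicate 2. Muscle markers also stood out on Bgn knockout replicate 1. Without the first 2 of these arrays, and with Bgn knockout replicate 1 kept, 3 probes were tested and 0 passed. The log2 changes themselves were then -2.60 for Zfp738, -1.97 for Fastkd3, -1.80 for Zfp367 ILMN_1257178, -1.73 and -0.97 for Cdk20 ILMN_2942930 and ILMN_1238557, and 0.94 for Ctsl.

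**Figure D2:**
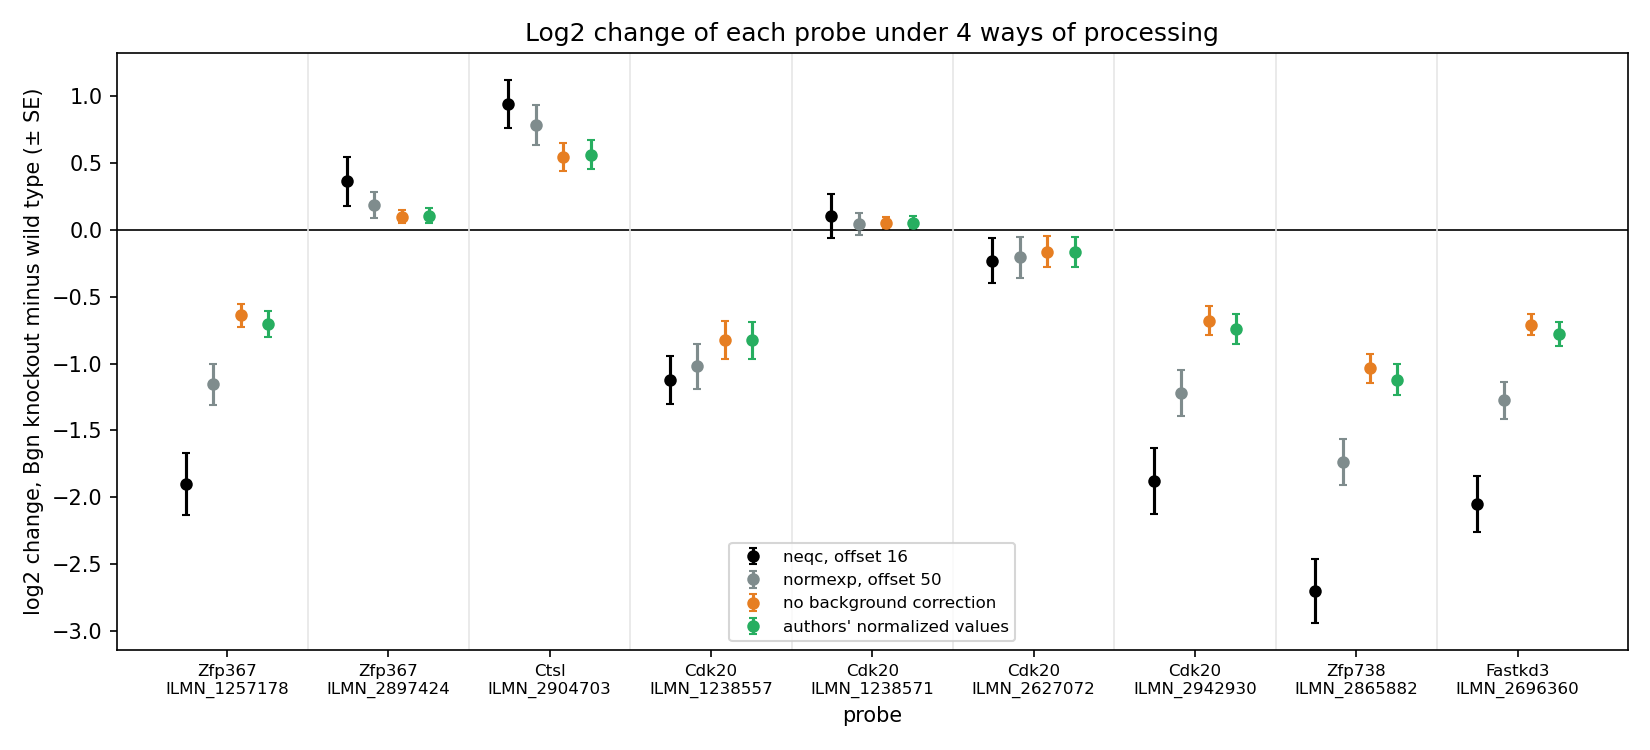
Log2 change, Bgn knockout minus wild type (vertical axis, bars are SE), of each probe (horizontal axis) under 4 ways of processing. The sign of each probe is the same under all 4, while the size for the probes near background differs, as for Zfp738 with -2.70 after neqc and -1.04 without background correction.

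The size of the changes depended on the background correction most for the probes that were near background in the knockout. Zfp738 had a log2 change of -1.74 with an offset of 50, -1.04 without background correction and -1.12 in the authors' normalized values. Fastkd3 had -1.27, -0.71 and -0.78 in the same order, and Zfp367 ILMN_1257178 had -1.16, -0.64 and -0.70. Cdk20 ILMN_2942930, detected in 1 Bgn knockout liver, had -1.22, -0.68 and -0.74, against -1.88 with neqc. For the brighter Cdk20 probe ILMN_1238557 the values were -1.02, -0.82 and -0.83.

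Wild type replicate 2 had the lowest wild type value on all 5 probes that were lower in the knockout. On Zfp367 ILMN_1257178 it had a log2 intensity of 5.98, against 6.83 to 6.96 on the other wild type arrays, and on Zfp738 it had 6.62, against 7.46 to 7.73. It still lay above every Bgn knockout array on each of the 5. Without wild type replicate 2 the log2 change was -2.95 for Zfp738, -2.24 for Fastkd3 and -2.14 for Zfp367 ILMN_1257178. On Ctsl the same array had the highest wild type value, 7.17, against 6.65 to 6.95 on the others. On Cdk20, wild type replicate 4 was highest on ILMN_2942930 (7.59 against 6.51 to 6.93) and ILMN_1238557 (9.43 against 8.51 to 9.02).

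Genes whose values lay closest to those of the members over the 8 arrays were found by the root mean square difference of log2 intensities. Each probe was centred on its own mean over all 8 arrays. The difference thus takes in the knockout minus wild type change by which the members were chosen, and genes with a change of like size lie near. Foxq1, a forkhead transcription factor gene also on chromosome 13 but at place 79, was nearest to Zfp367 (difference 0.217) and to Cdk20 ILMN_2942930 (0.207) and second nearest to Fastkd3 (0.218). These distances hold for the neqc values only, since the 3 member probes were at or near background in the knockout: with uncorrected background, Foxq1 had a log2 change of -1.40, against -0.64 for Zfp367, -0.68 for Cdk20 ILMN_2942930 and -0.71 for Fastkd3. Gpn2, a small GTPase gene on chromosome 4, was nearest to Fastkd3 (0.195) and among the 3 nearest of Zfp367, Cdk20 and Zfp738. Sytl1 on chromosome 4 was nearest to Zfp738 (0.184), with Taf12, also on chromosome 4, next (0.295). Their log2 changes were -2.93 and -3.06, beside -2.70 for Zfp738. The 3 nearest also held Hps1 (chromosome 19) for Zfp367, Rusc2 (chromosome 4) for Cdk20 and Mrap (chromosome 16) for Fastkd3. The log2 changes were -1.38 for Hps1, -1.58 for Rusc2, -2.20 for Mrap and -2.23 for Gpn2. Foxq1 had 8.07, 8.26, 8.13 and 8.23 in Bgn knockout livers and 9.93, 9.57, 9.95 and 10.2 in wild type livers on the log2 scale. In it, too, wild type replicate 2 had the lowest wild type value. Foxq1 and Gpn2 were picked for their likeness over all 8 arrays, this one included, so a shared low value is no separate observation. Nearest to Ctsl were Trim2 (0.137), Gm4951 (0.157) and Qprt (0.161). Of these, Qprt passed the test with a log2 change of 0.79 (SE 0.13, limma adjusted p = 0.00929). Trim2 and Gm4951 had 0.82 (adjusted p = 0.104) and 0.75 (adjusted p = 0.0764).

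**Figure D3:**
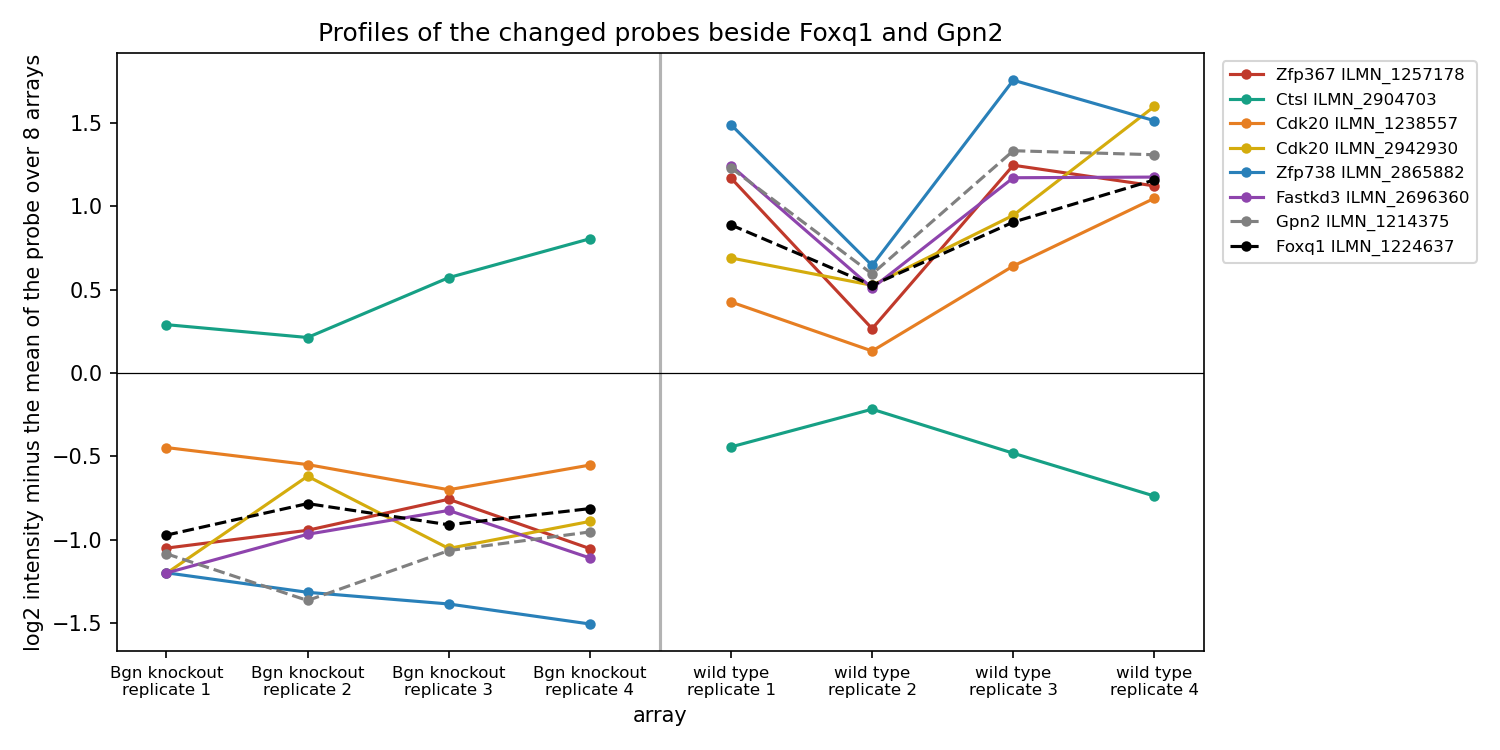
Log2 intensity minus the mean of the probe over 8 arrays (vertical axis) on each array (horizontal axis, Bgn knockout left, wild type right), for the 6 probes past the threshold and for Foxq1 and Gpn2, with lines only to guide the eye. The 5 lower probes, Foxq1 and Gpn2 all dip at wild type replicate 2, where Zfp367 stands at 0.27 and Zfp738 at 0.65. Foxq1 and Gpn2 were picked for their likeness over these same 8 arrays.

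The 20 tested neighbours of the 5 genes, 5 on either side of each, were compared in the same way. Of these 20 genes 0 passed in limma (those at an unadjusted p under 0.05 numbered 6), where 1.38% of all 8105 tested genes had a probe past the threshold. At that unadjusted level were 55 of the 281 tested chromosome 13 genes outside the 5, these 20 included, each by its probe with the smallest p. The share of all tested genes at that level is not given here. Cdc14b, a phosphatase gene of the cell cycle, came closest, with -0.74 (SE 0.16) on 1 probe and -0.47 and -0.22 on its others (limma adjusted p = 0.0509, 0.25 and 0.684). Its first probe passed with array weights (adjusted p = 0.0256) and without wild type replicate 3 (0.0399). Habp4, which encodes a hyaluronan-binding protein and is the next tested gene after Zfp367, had -1.29 (SE 0.30, limma adjusted p = 0.0768) on 1 probe and -0.0051 (0.993) on the other, so its probes disagreed too. Without background correction the first Habp4 probe had -0.51 and passed (adjusted p = 0.0407), and so it did with an offset of 50 (0.0438) and in the authors' normalized values (0.0436). Uqcrb, a subunit gene of respiratory complex III beside Cdk20, had 0.41 (SE 0.10, limma adjusted p = 0.103). Around Zfp738, Zfp87 had 0.50 (SE 0.21, limma adjusted p = 0.338) on 1 probe and 0.18 (0.625) on the other. Zfp748, next to Zfp738, had 0.41 (SE 0.20, adjusted p = 0.424). 

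**Figure D4:**
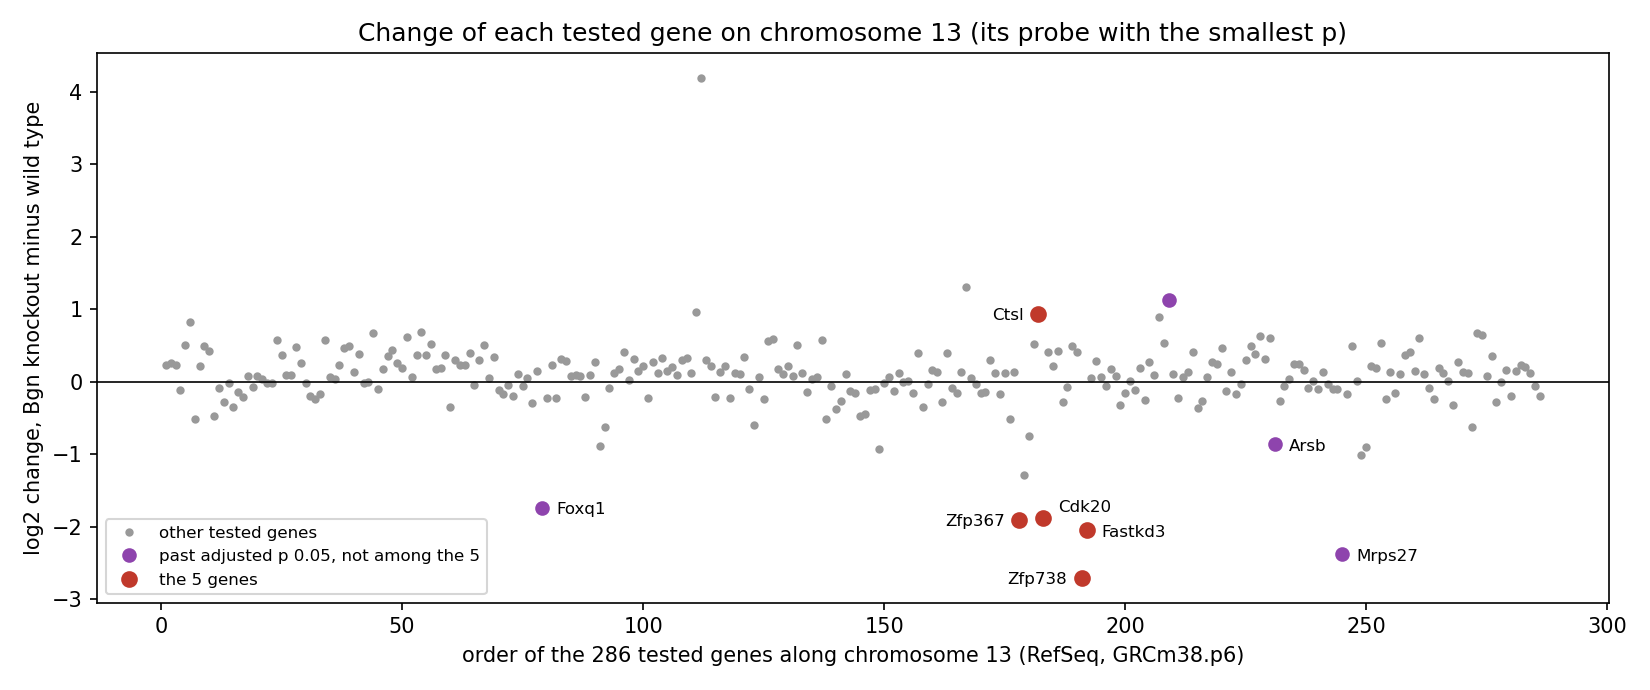
Log2 change, Bgn knockout minus wild type (vertical axis), of the 286 tested genes of chromosome 13 in their order along it (horizontal axis, place only), each by its probe with the smallest p. The 5 genes stand between places 178 and 192, and of the 4 other genes past the threshold Foxq1, Arsb and Mrps27 stand at places 79, 231 and 245.

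Beyond the neighbourhood, 4 of the 281 other tested genes of chromosome 13 passed (1.42%), 3 lower and 1 higher. Foxq1 fell by 1.74 on the log2 scale (SE 0.14, limma adjusted p = 3.27e-05), and Mrps27, of the small subunit of the mitochondrial ribosome, fell by 2.38 (SE 0.21, adjusted p = 6.02e-05). Both passed under all 19 alternatives. Arsb, a lysosomal sulfatase that acts on chondroitin and dermatan sulfate, fell by 0.86 (SE 0.16, limma adjusted p = 0.0249) on 1 probe and had -0.72 (adjusted p = 0.22) on the other. Arsb no longer passed in limma without any 1 of 6 arrays, all but Bgn knockout replicate 1 and wild type replicate 4 (largest adjusted p = 0.0888). The median change of the brightest probe was 0.085 over these 281 genes and -0.0030 over all tested genes, and the groups did not overlap for 10.5% of their probes.

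Relatives of the 5 genes in function were compared through lists, which were chosen with earlier results of these data known. Of 15 tested cathepsins and lysosomal partners limma called 0 (unadjusted p under 0.05 for 1), with a median log2 change of the brightest probe of 0.068 and a range from -0.36 to 0.18. Ctsh had -0.36 (SE 0.12, limma adjusted p = 0.232) and Lamp1, a lysosomal membrane protein gene, 0.12 (SE 0.079, adjusted p = 0.532), against 0.94 for Ctsl. Of 12 tested cyclin-dependent kinases and partners 0 passed (unadjusted p under 0.05 for 0, median -0.063), with -0.30 (SE 0.19, adjusted p = 0.524) for Cdk2 and -0.23 (SE 0.14, adjusted p = 0.514) for Cdk11b. The Cdk2 value is from its probe with the smallest p, of 3 tested. Over the brightest probes, which give the median, the lowest change was -0.23, that of Cdk11b. Of 11 tested replication and cell cycle genes 0 passed (unadjusted p under 0.05 for 2, median 0.15), where Ccnd1, for cyclin D1, had -0.77 (SE 0.22, adjusted p = 0.155) and Mcm4, a helicase subunit, 0.36 (SE 0.17, adjusted p = 0.37).

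Among 12 tested genes of the FASTK family and of mitochondrial RNA handling, 1 rose and 0 fell (8.33% against 1.38% of all tested genes). The median log2 change of the brightest probe was 0.068. An unadjusted limma p under 0.05 was reached by 5 of the 12, and by 55 of the 281 other tested genes of chromosome 13. Besides Slirp and Tbrg4 the 5 listed genes at that level were Lrpprc, Mtpap, a mitochondrial poly(A) polymerase, and Tfam, a mitochondrial transcription factor. They had 0.44 (SE 0.15), 0.38 (SE 0.13) and 0.41 (SE 0.17), and none passed (limma adjusted p = 0.229, 0.232 and 0.327). Each value is from the probe with the smallest p, of 3, 2 and 2 tested. Over the brightest probes of the listed genes no change was above 0.34. Slirp, a partner of Lrpprc in keeping mitochondrial messenger RNA stable, rose by 0.59 (SE 0.12, limma adjusted p = 0.0432), with 0.29 (adjusted p = 0.431) on its second probe, and its call ended without each of the 8 arrays (adjusted p up to 0.175). The family members Fastk, Tbrg4, Fastkd1 and Fastkd5 had -0.26 (SE 0.16), -0.40 (SE 0.15), 0.026 (SE 0.14) and 0.044 (SE 0.10), none of which passed (smallest limma adjusted p = 0.287), beside -2.05 for Fastkd3. Of the 8 tested zinc finger genes of chromosome 13 outside the 5, limma called 0 (unadjusted p under 0.05 for 1), with a median log2 change of the brightest probe of 0.011 and a range from -0.38 to 0.42 over these probes. The lowest was Zfp346 (-0.38, SE 0.19, limma adjusted p = 0.423). Of 39 such genes listed, 24 have a probe on the array, so for most the arrays gave no tested value.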

How the data were processed

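Liver RNA of 8 male mice was hybridised to Illumina bead arrays. Per the file headers, the unnormalized deposited table gives every probe's mean bead intensity on each array beside its detection p-value. The intensity is on a linear scale. The authors also deposited normalized intensity values, for which the sources used here give no method. Software versions listed in the submitters' processing notes, with no step, are lumi 2.10.0 and R 2.15.0.

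Intensities were processed with neqc in limma 3.58.1 (R 4.3.3): normexp background correction from the detection p-values (offset 16), then quantile normalization and a log2 transform. Probes detected (p under 0.05) on 4 or more arrays were tested, which left 11494 probes of 8105 genes. Bgn knockout was set against wild type by lmFit and eBayes with a variance trend and robust estimation. No covariate was used, and the Benjamini-Hochberg adjustment covered every tested probe. Alternatives were other background corrections, scalings, filters and variance settings, the authors' normalized values, a replicate block, and sets of arrays left out. The fit was tested on simulated data. The platform annotation gave 1 gene for 23978 probes and none for 1719, and 23962 Entrez numbers matched RefSeq (GRCm38.p6), which gave gene order and promoter sequences, also for all 5 genes. Figures used matplotlib 3.10.9 (Python 3.11.15).

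The 5 genes and the gene lists were chosen with earlier results of these data known. Named genes are the 5, Bgn, the 2 neighbours of each with the smallest p, the chromosome 13 genes past the threshold, for each list those past it or the 2 with the smallest p, and the 3 with the most similar profile. Mtrr, Tpmt, Uqcrb and the FASTK family and mitochondrial RNA genes outside that rule were named after their values were seen. The rule also covers 1 higher gene of chromosome 13, which is not reported here. Nothing says that mice came from separate cages or litters. The p-values set the group difference against the spread between these animals, moderated across all tested probes by eBayes. The replicate number only names an array, and the number of arrays limits the precision.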

Additional observations from a re-analysis of the deposited data

Results flagged for a closer look

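In each group of 4 arrays, a value was singled out where its gap to the nearest other array was large beside the range of the group (Dixon's test at the 95% level). Of the 18 groups formed by the 9 probes, 3 held such a value, against 0.9 that chance alone gives at about 1 in 20. Zfp367 ILMN_1257178 stood at 5.98 (log2) in wild type replicate 2, with the other wild type arrays at 6.83 to 6.96. Fastkd3 had 6.33 on the same array, with the others at 6.99 to 7.06. Cdk20 ILMN_1238571, not detected on any array, had 4.43 on wild type replicate 3, with the others at 4.65 to 4.67.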

How the results depend on the processing

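The 165 log2 changes of the 9 probes under 19 alternatives all had the sign given in the report, and 19 moved by more than 1 SD between replicates. The filters, the variance setting and the replicate block leave a log2 change as it was, so under them the sign could not differ. All settings use arrays by which the genes were chosen. Of the 7 tested probes of the 5 genes 6 passed, and the count was 2 to 5 without 1 array, 2 when detection at p under 0.01 was required on all arrays (3 tested), 0 without the 2 arrays highest in muscle transcripts (3 tested) and 4 with the replicate block. Over all tested probes 127 passed, against 197 with array weights, 64 with the replicate block, 48 without the 2 arrays highest in muscle transcripts and 59 to 121 without 1 array. On chromosome 13 outside the 5 genes the count was 4, against 8 with array weights, 2 without the 2 arrays highest in muscle and 2 to 5 without 1 array. Among the 20 neighbours it was 0, against 1 without background correction, with an offset of 50, in the authors' normalized values and with array weights, and 0 to 1 without 1 array. Arsb also missed the threshold in limma with median scaling (adjusted p = 0.0596), with plain eBayes (0.0523) and without the 2 arrays highest in muscle (0.063). Slirp missed it with the replicate block (limma adjusted p = 0.116) and in 12 other settings. Same-numbered arrays did not deviate together (correlations -0.30 to 0.057), so the block pairs arrays by number only. The cause of these shifts was not tested, except that fewer wild type arrays leave fewer probes tested. The signal over background limits the probes not detected in the knockout, for which the arrays give bounds only.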

Other observations

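Tpmt, a drug-metabolising methyltransferase gene at place 112 of chromosome 13, was chosen after its values were seen. It had the largest log2 change among tested probes of the chromosome, 4.19 (SE 1.24), without passing in limma (adjusted p = 0.236). Its log2 intensity was 10.78, 11.35, 11.65 and 11.48 in the 4 Bgn knockout livers. In the wild type livers it was 6.37, 10.85, 5.89 and 5.40, so wild type replicate 2 lay at the level of the Bgn knockout livers and the other wild type arrays far below. Wild type replicate 2 is also the array with the lowest wild type value of all 5 lower probes of Zfp367, Cdk20, Zfp738 and Fastkd3. What the values of this array have in common was not tested.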
